A study of Mus musculus with 6 samples.

Results

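miR-132 and miR-212 are a pair of miRNAs cut from neighbouring hairpins of 1 transcript, and they are known as miRNAs whose transcription in neurons rises with synaptic activity. They were chosen by name from the deposited read tables, in any arm, which gave 4 of the 1055 mature miRNAs listed: miR-132, miR-132*, miR-212-3p and miR-212-5p. Small RNA was sequenced from whole brains of 6 female mice aged 5.5 months, of the strain given as 129SV. The 3 wild-type and 3 Adar2-/- mice were siblings, all homozygous for the Gria2 R/R allele, and differed in whether the gene for ADAR2 was intact. The pre-edited Gria2 R/R allele rescues the early death caused by the lack of ADAR2, so it was shared by both genotypes, and the mutation was present in every cell of the body. The comparison asked whether the loss of ADAR2, an enzyme that converts adenosine to inosine in double-stranded RNA such as miRNA precursors, changed the level of a mature miRNA.

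In neurons, calcium entry activates the transcription factor CREB, which binds the cAMP response element (CRE) and switches on the transcript that holds both hairpins. Drosha and Dicer then cut each hairpin into a duplex, of which 1 strand (the guide) is kept in the silencing complex while the other (the passenger, or star strand) is mostly degraded. miR-132 is known for promoting the growth of dendrites. The guides of both hairpins have the same seed, the bases by which a miRNA finds its targets.

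The 4 mature sequences are shown because the shared seed and the differences outside it define the family. They were taken from RefSeq, all 4 members were matched, and the seed (bases 2 to 8) is in capitals. RefSeq calls miR-132 of the tables miR-132-3p and miR-132* miR-132-5p, and the ends may differ from those of the miRBase release to which the reads were mapped.

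miR-132: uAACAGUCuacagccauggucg
miR-212-3p: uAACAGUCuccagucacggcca
miR-132*: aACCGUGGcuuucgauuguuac
miR-212-5p: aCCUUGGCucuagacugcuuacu

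Among the 1679 mature mouse miRNAs of the RefSeq table, the seed AACAGUC was held by miR-132 and miR-212-3p alone. The passengers each had a seed that occurred once, ACCGUGG in miR-132* and CCUUGGC in miR-212-5p. Counted from the 5′ end, miR-212-3p differed from miR-132 by A10C, C14U, U17C, U20C and G22A, which is 5 of 22 bases. The passengers were 7 edits apart, and each member was at least 6 edits away from any miRNA outside the family. Mapping at 90% identity allowed 2 mismatches on 22 bases, fewer than separate any 2 of these sequences.

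Both hairpins lie on the plus strand of chromosome 11 (build NCBIM37, which is mm9), Mir212 at chr11:74986890-74986980 and Mir132 at chr11:74987184-74987249, with 203 bases between them. They lie in intron 1 of the annotated long non-coding RNA gene 1700016P03Rik, which has 3 exons and starts 828 bases before Mir212. No other miRNA gene was annotated within 50000 bases. The hairpins are shown with both mature arms in capitals, since the 5′ arm is the passenger and the 3′ arm the guide in each of them.

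Mir212: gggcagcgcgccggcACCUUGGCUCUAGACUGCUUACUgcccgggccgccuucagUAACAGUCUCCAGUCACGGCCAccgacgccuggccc
Mir132: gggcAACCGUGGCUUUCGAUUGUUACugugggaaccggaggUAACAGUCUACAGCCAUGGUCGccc

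The Mir212 hairpin is 91 bases long with 69.2% G and C, and the Mir132 hairpin, as given by RefSeq, 66 bases with 57.6%. RNAfold predicted 32 base pairs and a folding energy of -41.5 kcal/mol in Mir212, and 26 base pairs and -37.2 kcal/mol in Mir132.

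The 8 letters of the full CRE, TGACGTCA, which read the same on both strands, were searched beside the hairpins because the family is known as a CREB target. The 300 bases before Mir212 (chr11:74986590-74986889, NCBIM37, plus strand) held 2 copies, ending 110 and 94 bases before the hairpin. The 203 bases between the hairpins (chr11:74986981-74987183) held 1, ending 28 bases before Mir132. Windows of either length before the 93 annotated miRNA genes of chromosome 11 held it in 2 cases (2.15%), and these were Mir212 and Mir132. The 300 bases around the start of 1700016P03Rik, from 250 before to 50 after it, held no full CRE, and 1.52% of the 2953 gene starts of chromosome 11 held one. The letters are a description of the sequence, and binding of CREB was not measured here. In both windows the CRE is in capitals.

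Before Mir212: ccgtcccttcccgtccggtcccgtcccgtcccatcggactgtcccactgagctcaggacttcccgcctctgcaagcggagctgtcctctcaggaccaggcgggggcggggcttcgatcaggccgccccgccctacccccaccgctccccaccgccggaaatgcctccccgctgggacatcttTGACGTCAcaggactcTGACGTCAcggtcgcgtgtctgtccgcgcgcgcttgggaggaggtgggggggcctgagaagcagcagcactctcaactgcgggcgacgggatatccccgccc
Between the hairpins: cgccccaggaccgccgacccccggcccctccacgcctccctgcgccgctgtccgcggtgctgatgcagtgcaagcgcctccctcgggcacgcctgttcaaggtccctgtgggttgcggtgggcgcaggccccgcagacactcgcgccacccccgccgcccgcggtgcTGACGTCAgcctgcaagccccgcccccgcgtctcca

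The libraries held 12449633 to 23935544 mapped miRNA reads, and abundance is given as reads per 1000000 of these reads (RPM), so a value is relative to all other miRNAs and the total amount per brain cannot be seen. In whole brain, fewer cells that make a miRNA and less of it per cell cannot be told apart. Library values are listed in the order of replicates 1 to 3, and exact permutation tests were two-sided. The counts are of mature miRNAs only, so the transcript of the ADAR2 gene cannot be seen in them. The neuronal marker list (miR-124, miR-128, miR-137, miR-138, miR-153 and miR-218, 15 arms, all above 0 in every library) summed to 30225 to 50439 RPM in wild type and 31779 to 58728 RPM in Adar2-/-. Wild-type replicate 1 stood apart in some measures and not in others. Its passenger arms took 7.78% of the reads of 194 hairpins, against 3.51% to 4.52% in the other 5 libraries, but the median log2 ratio of guide to passenger over these hairpins was 3.33 there and 3.33 to 3.73 in the others. miR-375 (known from pituitary and pancreas) stood at 3294 RPM against 42.9 to 113, while the whole list of pineal, retina and pituitary markers summed to 121110 RPM, within the range of the others. The part of these differences in the results was not tested.

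miR-132, the guide that takes nearly all reads of the family, was among the 20 most abundant miRNAs in every library. It stood at 11169, 25263 and 28173 RPM in wild type and at 16181, 19320 and 19029 RPM in Adar2-/-. Its rank was 18, 9 and 10 in wild type and 13, 14 and 15 in Adar2-/-. The Adar2-/- libraries lay close together and within the wild-type range, whose lowest value was that of replicate 1. Means were 21535 ± 9095 RPM (SD, n = 3) and 18177 ± 1734 (SD, n = 3), a ratio of 0.844 (exact permutation p = 0.5, and 3 against 3 cannot go below 0.1). These means correspond to coefficients of variation of 42.2% and 9.54%, and the 95% Poisson interval of the lowest value ran from 11110 to 11228 RPM, which covers counting error only.

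miR-132*, the passenger strand of the same hairpin, stood at 397, 135 and 193 RPM in wild type and at 206, 201 and 274 RPM in Adar2-/-. Wild-type replicate 1, the lowest library of the guide, was the highest here, and the Adar2-/- libraries again lay inside the wild-type range. Means were 242 ± 137.7 RPM (SD, n = 3) and 227 ± 40.9 (SD, n = 3), a ratio of 0.939 (exact permutation p = 1.0).

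miR-212-3p, the guide of the upstream hairpin, stood at 42.2, 34.3 and 48.5 RPM in wild type and at 27.9, 56.4 and 101 RPM in Adar2-/-. Adar2-/- held both the lowest and the highest library, and replicate 3 was 3.60 times replicate 1. Reads outside the 5 most abundant miRNAs were 8095877 of 18645810 in Adar2-/- replicate 1 and 15115865 of 23935544 in Adar2-/- replicate 3. The part of this difference in the factor of 3.60 was not tested. Adar2-/- replicate 3 also had the highest neuronal marker sum (58728 RPM) and the lowest sum of the pineal, retina and pituitary list (23907 RPM against 92901 to 188478 in the other 5 libraries). Within that list miR-182 and miR-183 were lowest in this library and miR-7a was highest (3585 RPM), and their part in the value of miR-212-3p was not tested. Means were 41.6 ± 7.11 RPM (SD, n = 3) and 61.6 ± 36.6 (SD, n = 3), a ratio of 1.48 (exact permutation p = 0.5).

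miR-212-5p, the passenger of that hairpin, had the fewest reads of the family, with 180, 85 and 139 in wild type and 91, 163 and 207 in Adar2-/-. This corresponds to 14.5, 3.73 and 5.92 RPM in wild type and 4.88, 6.91 and 8.65 RPM in Adar2-/-. As for miR-132*, the highest library was wild-type replicate 1 and the lowest wild-type replicate 2. Means were 8.04 ± 5.67 RPM (SD, n = 3) and 6.81 ± 1.89 (SD, n = 3), a ratio of 0.848 (exact permutation p = 0.9). The counting error of a single library was 6.95% to 10.8% of its value (SD of a Poisson count), below the coefficients of variation of 70.5% in wild type and 27.7% in Adar2-/-.

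**Figure D1:**
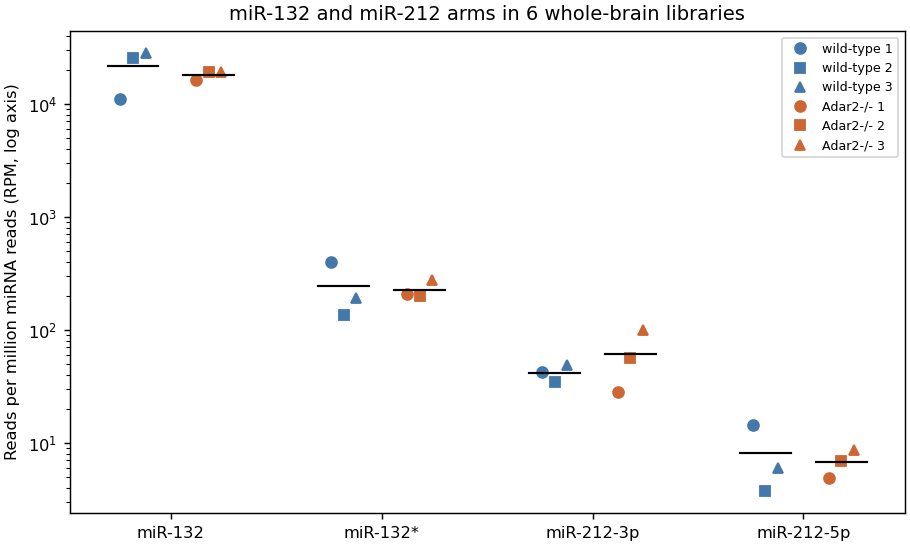
Abundance of the 4 arms in RPM (log axis), with a point for each library and a horizontal bar at the mean of 3 libraries. The order miR-132, miR-132*, miR-212-3p, miR-212-5p held in each of the 6 libraries, and the genotypes overlapped for every arm.

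The arms are of nearly equal length (22 and 23 bases), so their RPM can be set side by side, although the ligation of adaptors may favour some sequences and this was not tested. In each of the 6 libraries the order of the levels was miR-132, miR-132*, miR-212-3p and miR-212-5p. No neighbours in this order overlapped: the lowest miR-132* library (135 RPM) lay above the highest miR-212-3p library (101 RPM), and the lowest miR-212-3p library (27.9 RPM) above the highest miR-212-5p library (14.5 RPM). The 4 arms together took 1.16%, 2.54% and 2.84% of all mapped miRNA reads in wild type and 1.64%, 1.96% and 1.94% in Adar2-/-. Summed over the arms, wild type had 21826 ± 8962 RPM (SD, n = 3) against 18472 ± 1779 (SD, n = 3) for Adar2-/-, at a ratio of 0.846 (exact permutation p = 0.5). On the log2 scale this is -0.24, which was -0.54 without wild-type replicate 1 (exact permutation p = 0.1, the smallest for 2 against 3) and -0.0045 without wild-type replicate 3 (exact permutation p = 1.0). The share of all miRNAs whose genotypes would separate without wild-type replicate 1 was not tested.

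Within the family miR-132 took 96.1% of the reads in wild-type replicate 1 and 98.0% to 99.3% in the other 5 libraries. miR-132* took 3.42% in wild-type replicate 1 and 0.532% to 1.41% elsewhere, miR-212-3p 0.135% to 0.518%, and miR-212-5p 0.0147% to 0.124%. Both passengers had their highest share in wild-type replicate 1, and miR-212-3p in Adar2-/- replicate 3.

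edgeR's quasi-likelihood method compared the genotypes over the 399 miRNAs that reached 100 reads in each library, with positive log2 fold changes for higher levels in Adar2-/-. miR-132, miR-132* and miR-212-3p passed this minimum, whereas miR-212-5p, with 85 and 91 reads in its 2 lowest libraries, did not. Of these 3 members 0 passed the threshold of 0.05 after Benjamini-Hochberg adjustment and 0 had an unadjusted p under 0.05, beside 0% and 3.26% of all 399 miRNAs. DESeq2, with its own size factors, also called 0 of the 3 and gave 0 an unadjusted p under 0.05. Over all 399 miRNAs edgeR called 0, with 13 at an unadjusted p under 0.05, and DESeq2 called 1 (0.251%), with 40 (10%) at that level.

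The edgeR log2 fold change of miR-132 was -0.24 (standard error, SE, 0.382, edgeR adjusted p = 0.989), with a 95% interval from -1.09 to 0.60. That of miR-132* was -0.09 (SE 0.417, edgeR adjusted p = 0.989), with an interval from -1.02 to 0.84. For miR-212-3p it was 0.57 (SE 0.451, edgeR adjusted p = 0.988), with an interval from -0.44 to 1.57. With library sizes that left out the 5 most abundant miRNAs, miR-212-3p stood at 0.42. In the edgeR fit with a minimum of 10 reads, which took in 608 miRNAs, miR-212-5p stood at -0.22 (SE 0.497, edgeR adjusted p = 0.982), with an interval from -1.32 to 0.87. On the log2 scale, values from -1.09 to 0.60 lay within the interval of miR-132, and the interval of miR-212-3p reached 1.57, so these values do not show that the levels were equal.

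Replicate 1 went against replicates 2 and 3 in all 4 arms when each Adar2-/- library was divided by the wild-type library of the same number. For miR-132 the 3 ratios were 1.45, 0.765 and 0.675. miR-132* moved the other way, with ratios of 0.519, 1.49 and 1.42. miR-212-3p had ratios of 0.663, 1.65 and 2.07, and miR-212-5p 0.338, 1.85 and 1.46. Accordingly 0 of the 3 tested members kept 1 direction in all 3 replicate numbers, beside 16% of the 399 miRNAs. The genotypes did not separate for any of the 3 (0 members, beside 5.76% of the 399).

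Without replicate 1 in both genotypes, the edgeR log2 fold change of miR-212-3p was 0.92 with an unadjusted p of 0.0291 and an adjusted p of 0.170, and that of miR-132* turned to 0.53 (adjusted p = 0.370). The same edgeR fit gave 87 of all 399 (21.8%) an unadjusted p below 0.05 and called 18 (4.51%), and the median log2 fold change of all was 0.17. miR-132 stood at -0.48 (adjusted p = 0.370) in that fit. With only wild-type replicate 1 left out, the values were -0.56 for miR-132 (adjusted p = 0.669) and 0.47 for miR-132* (adjusted p = 0.704). Without Adar2-/- replicate 3, the library with the most miR-212-3p, that guide stood at 0.02 (adjusted p = 0.995), and without Adar2-/- replicate 1 at 0.91 (adjusted p = 0.404). Without wild-type replicate 3, miR-132 stood at -0.0031 (adjusted p = 0.998). A member was called in none of the 9 fits with a library or replicate number removed. Over all 399 miRNAs these fits called 0, except that without replicate 1, which called 18.

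**Figure D2:**
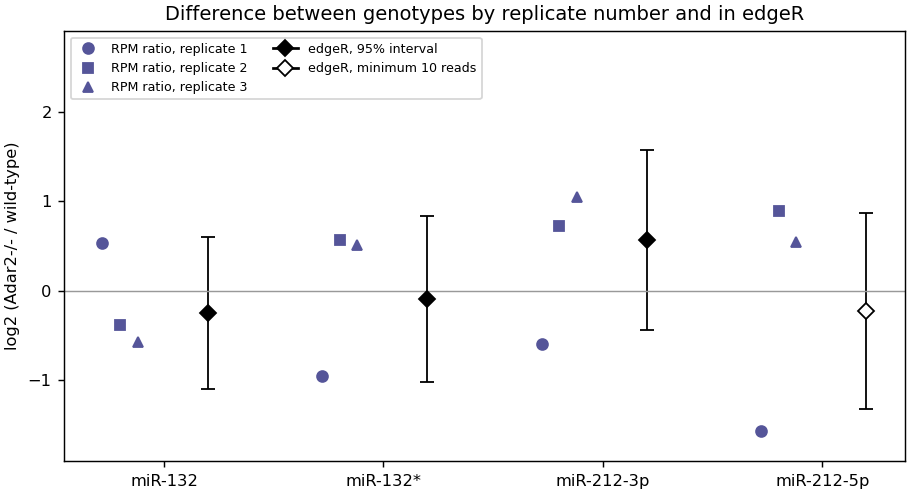
The y axis gives the log2 ratio of Adar2-/- to wild type. Circles, squares and triangles are RPM ratios within each replicate number and diamonds are edgeR log2 fold changes with 95% intervals (all 6 libraries, open diamond with a minimum of 10 reads). Replicate 1 lies on the other side of 0 from replicates 2 and 3 in every arm, and each interval includes 0.

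The ratio of guide to passenger reads within a library needs no scaling to the library total. For miR-132 it was 28.1, 187 and 146 in wild type and 78.5, 96.1 and 69.4 in Adar2-/-. All 3 Adar2-/- libraries lay between wild-type replicate 1 and the other wild-type libraries. On the log2 scale the means were 6.52 ± 1.49 (SD, n = 3) and 6.33 ± 0.24 (SD, n = 3), a difference of -0.18 (exact permutation p = 1.0). Without wild-type replicate 1 the difference was -1.04 (exact permutation p = 0.1, the smallest that 2 against 3 allow). How many other hairpins would separate after the same removal was not tested. The direction turned to 0.33 without wild-type replicate 2, 0.15 without wild-type replicate 3, 0.20 without replicate 2 in both genotypes and 0.26 without replicate 3.

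For miR-212 the ratio of guide to passenger was 2.92, 9.19 and 8.19 in wild type and 5.73, 8.17 and 11.6 in Adar2-/-. The guide thus had more reads than the passenger in every library, by less than in miR-132. The log2 means were 2.59 ± 0.91 (SD, n = 3) and 3.03 ± 0.51 (SD, n = 3), a difference of 0.44 (exact permutation p = 0.7), which was -0.09 without wild-type replicate 1.

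miR-132 and miR-212-3p come from the same transcript and share a seed, and miR-132 had 189 to 737 times the reads of miR-212-3p. The ratio was 265, 737 and 581 in wild type and 579, 342 and 189 in Adar2-/-. The log2 means were 8.92 ± 0.77 (SD, n = 3) and 8.39 ± 0.81 (SD, n = 3), a difference of -0.53 (exact permutation p = 0.5). It was -0.97 without wild-type replicate 1 (exact permutation p = 0.2), -1.36 without replicate 1 in both genotypes and 0.01 without replicate 3.

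The ratio of the passengers varied less. miR-132* had 27.5, 36.2 and 32.6 times the reads of miR-212-5p in wild type and 42.2, 29.1 and 31.7 times in Adar2-/-. Over the 6 libraries the SD of the log2 ratio was 0.22 for the passengers and 0.76 for the guides. The log2 means of the passenger ratio were 5.00 ± 0.20 (SD, n = 3) and, for Adar2-/-, 5.08 ± 0.28 (SD, n = 3) (exact permutation p = 0.7).

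**Figure D3:**
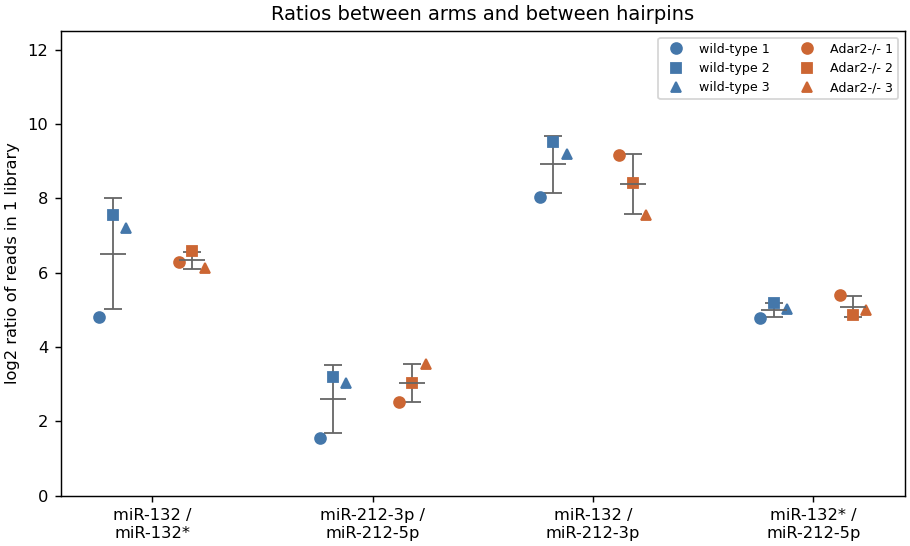
Each point is the log2 ratio of the read counts of 2 arms in 1 library, and the grey bars are means ± SD of 3 libraries per genotype. Wild-type replicate 1 is lowest in both guide to passenger ratios, and the ratio of the passengers, on the right, has the narrowest range of the 4, from 4.78 to 5.40.

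Both arms of a hairpin were listed with at least 10 reads in every library for 194 hairpins. With the arm named without a star, or the more abundant of the 5p and 3p arms, as guide, the median mean ratio of guide to passenger reads was 11.6. miR-132, with a mean ratio of 85.9, was number 40 from the highest, and miR-212, with 7.02, was number 115. The SD of the log2 ratio over the 6 libraries was 0.957 for miR-132, larger than in 85.1% of the hairpins, and 0.703 for miR-212, larger than in 65.5%, where the median was 0.589. In wild-type replicate 1 the log2 ratio was below the median of the other 5 libraries in 63.9% of the hairpins, with a median difference of -0.27. The differences of -1.77 for miR-132 and -1.49 for miR-212 were number 11 and number 25 from the lowest. Between genotypes (Adar2-/- minus wild type) the median difference of the log2 ratio over the 194 hairpins was 0.16, beside -0.18 for miR-132 and 0.44 for miR-212.

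**Figure D4:**
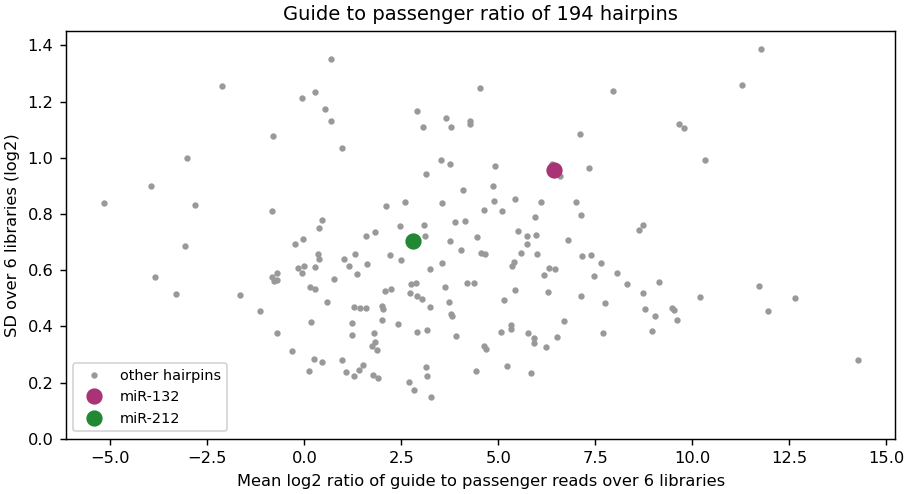
Each point is a hairpin, with the mean log2 ratio of guide to passenger reads over 6 libraries on the x axis and its SD over the libraries on the y axis. miR-132 lies at 6.42 with an SD of 0.957, in the upper part of the cloud, and miR-212 at 2.81 with an SD of 0.703.

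Over the 6 libraries the SD of log2 RPM was 0.476 for miR-132, 0.526 for miR-132*, 0.643 for miR-212-3p and 0.682 for miR-212-5p. The median over the 399 miRNAs was 0.447, and 55.1%, 63.7%, 78.9% and 82.2% of them had a smaller SD than miR-132, miR-132*, miR-212-3p and miR-212-5p. The profiles most like that of each guide were found by Pearson's r of log2(RPM + 1) over the 6 libraries among 396 miRNAs outside the family. The r of a profile picked as the closest of many is a measure of likeness only, and the points share library and depth.

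For miR-132 the closest were miR-340-3p (r = 0.979), miR-30a (0.972), miR-1929 (0.967), miR-153 (0.960) and miR-154 (0.951). miR-153, known as a neuronal miRNA, stood at 5035, 7927 and 7879 RPM in wild type and at 6166, 7456 and 6562 RPM in Adar2-/-. Each of these 5 was lowest in wild-type replicate 1, and without that library r was 0.867 to 0.943.

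For miR-212-3p the closest were miR-496 (r = 0.991), miR-145 (0.986), miR-299* (0.976), miR-421 (0.964) and miR-15a (0.956). miR-145, known from the smooth muscle of vessel walls, stood at 378, 319 and 413 RPM in wild type and at 322, 450.8 and 676 RPM in Adar2-/-. Each of these 5 was highest in Adar2-/- replicate 3, and without wild-type replicate 1 r was 0.956 to 0.995. The closest 5 of miR-132 and those of miR-212-3p had no miRNA in common.

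**Figure D5:**
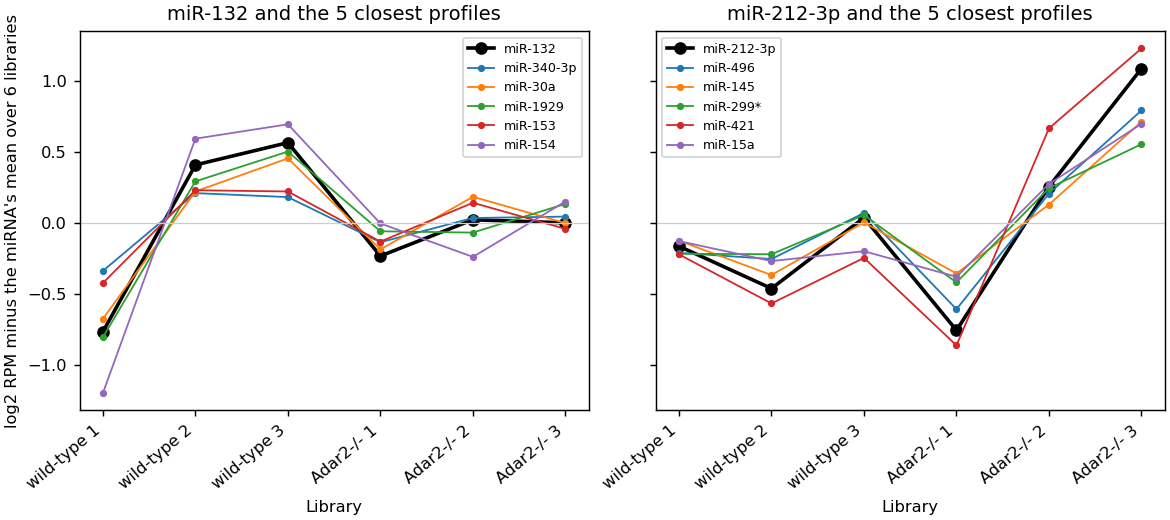
The y axis gives log2 RPM minus the mean of the same miRNA over 6 libraries, with each guide in black and its 5 closest profiles in colour (lines join the values of 1 miRNA and mean no order). miR-132 has its lowest value in wild-type replicate 1, and miR-212-3p its highest in Adar2-/- replicate 3.

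Other miRNAs that are known to be regulated by neuronal activity or to act at synapses formed a list of 13 arms, all of which reached 100 reads in every library. In edgeR 10 were higher and 3 lower in Adar2-/-, beside 201 higher and 198 lower of all 399 miRNAs. Of the list, 0 were called and 0 reached an unadjusted p under 0.05, beside 0% and 3.26% of the 399. DESeq2 also called 0. The median log2 fold change of the list was 0.20, against 0.0023 over all 399 miRNAs.

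The largest positive value belonged to miR-137, a regulator of synaptic vesicle release, which stood at 612, 511 and 377 RPM in wild type and at 500, 836 and 1621 RPM in Adar2-/-. In edgeR this gave 0.98 on the log2 scale (SE 0.446, adjusted p = 0.988) and 1.47 with replicate 1 removed from both genotypes (adjusted p = 0.0612). Replicate 1 and replicates 2 and 3 went in opposite directions for miR-137, as they did for the family. miR-29a, which is known to rise as the brain matures, stood at 0.61 and miR-124, the classic neuron-specific miRNA, at 0.56 (edgeR adjusted p = 0.988 for both).

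Among the members of the large imprinted cluster that neuronal activity induces through Mef2, miR-134, which limits dendritic spine size, stood at 0.08 (SE 0.340), miR-381 at -0.10, miR-329 at 0.35, miR-485 at 0.26 and miR-485* at 0.31. miR-379 of the same cluster had the most negative value of the list, -0.48 (SE 0.370, edgeR adjusted p = 0.988). It stood at 3360, 5652 and 7761 RPM in wild type and at 3226, 4674 and 4125 RPM in Adar2-/-. It was the only one of the 13 to keep 1 direction in all 3 replicate numbers, beside 16% of the 399 miRNAs. miR-138, which also limits spine size, was at 0.05, miR-125b-5p at 0.20, and miR-219-5p and miR-219-3p at 0.20 and -0.19. The genotypes overlapped for each of the 13, and did not overlap for 5.76% of the 399.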

How the data were processed

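The authors removed adaptors from reads of 36 bases with Cutadapt, mapped the reads with NextGenMap at 90% identity or more to the mature miRNAs of miRBase release 16, and deposited 1 table per replicate number with the read counts of 1 wild-type and 1 Adar2-/- library, without normalization. Tool versions are not given in the sources used here, and 12 blank lines were dropped. Columns were given to samples by genotype and replicate number. The members and lists were chosen with earlier results of these data known.

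Counts were tested with edgeR 4.0.16 (glmQLFit, glmQLFTest) in R 4.3.3, taking the sum of all mapped reads as library size without a scaling factor or block. The 399 miRNAs that reached 100 reads in each library entered, with Benjamini-Hochberg adjustment and a threshold of 0.05. Standard errors and 95% intervals come from the quasi-likelihood F statistic. Single values were compared by exact permutation over libraries. The edgeR fit was also run on simulated counts with changes larger than those of the members. That run does not show how small a change the fit would find. The fits were repeated with TMM factors, DESeq2 1.42.0, library sizes that left out the top 5 miRNAs, a minimum of 10 reads or none, a replicate block, and leaving out each library or replicate number, with the miRNAs tested kept the same.

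Named miRNAs are the members, the activity list, miRNAs that share a seed and the 5 closest profiles of each guide. Single markers are named where they differed most between libraries. Besides the neuronal list, marker lists of oligodendrocytes (1293 to 1783 RPM in sum), vessels (50324 to 80301), blood (1277 to 3618), choroid plexus (840 to 1626) and pineal, retina and pituitary (23907 to 188478) were summed in each library. Total reads were 12449633, 22779406 and 23471819 in wild type and 18645810, 23585294 and 23935544 in Adar2-/- replicates 1 to 3. Nothing in the sources says that replicate numbers mark a litter or day, and each brain was a separate library. The column labels of replicate 1 differed in form from those of the other replicates, and the sources do not say why. Sequences came from RefSeq (GRCm38.p6), with coordinates from exact matches to NCBIM37 and annotation from GENCODE. Hairpins were folded with RNAfold of ViennaRNA 2.7.2. Python 3.11.15 with scipy 1.17.1, pandas 2.3.3 and numpy 2.4.6 gave all other values, and matplotlib 3.10.9 the plots.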

Additional observations from a re-analysis of the deposited data

How the results depend on the processing

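No alternative called a member or a miRNA of the activity list. Over all miRNAs tested, 18 were called without replicate 1 and 1 by DESeq2, against 0 in edgeR with all libraries and 0 in the other alternatives. The log2 fold change ran from -0.56 to -0.0031 for miR-132 and from 0.02 to 0.92 for miR-212-3p over 16 alternatives, without a change of direction. miR-132* turned to 0.054 with the replicate block and 0.051 with the block and TMM factors, stood at 0.47 without wild-type replicate 1 and, with number 1 left out of both genotypes, at 0.53, and ran from -0.39 to 0.53. The difference in guide to passenger ratio of miR-132 ran from -1.04 to 0.33 with libraries left out, and was 0.33 without wild-type replicate 2, 0.15 without wild-type replicate 3, 0.20 without replicate 2 and 0.26 without replicate 3. That of miR-212 ran from -0.088 (without wild-type replicate 1) to 0.74, and that between the guides from -1.36 to 0.011 (without replicate 3). The log2 ratio of the summed level ran from -0.54 to -0.0045. The cause was not tested. Deviations from the genotype means correlated at 0.0010, -0.0784 and -0.0116 within replicate numbers 1 to 3, and at -0.0284 to 0.0740 between numbers. Whether libraries of the same number shared a run or day was not tested. The replicate block gave -0.14 for miR-132, 0.40 for miR-212-3p and 7 in place of 13 miRNAs with an unadjusted p under 0.05.
Reads limit miR-212-5p, which had under 100 in 2 libraries. Exact tests of 3 against 3 cannot go below 0.1, and within replicate pairs not below 0.25.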
